A study of Homo sapiens with 6 samples.

Results

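The genes described here are 44 genes that copy DNA or prepare cells for S phase, measured as mRNA in MCF-10A cells on 6 Affymetrix Human Genome U133 Plus 2.0 arrays, 3 of cells that received an MBD2 lentivirus and 3 of control cells. They were taken by name. Each gene was represented by the probe set that the platform annotation gives to exactly 1 symbol and that had the highest mean over the 6 arrays. All 44 were measured, of 19775 genes with such a probe set. MCF-10A is an immortalized, nontransformed line of breast epithelial cells, grown here in a mammary epithelial medium. For the MBD2 group the virus was packaged in HEK293 cells transfected with an MBD2 plasmid, and their filtered supernatant was put on the MCF-10A cells. For the control group, the labels and design text describe cells that were not infected and replicates that were technical. The methods describe an empty virus and biological replicates. For the MBD2 group the labels give the treatment as MBD2 transfection, where the methods describe the lentivirus. These descriptions differ, and whether separate cultures were used is not given. The p-values below therefore measure array-to-array spread alone, which may be technical.

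S phase begins when cyclin E activates its kinase and the E2F transcription factors are released from the retinoblastoma proteins, whereupon E2F1 and its relatives turn on the genes that copy DNA. Before that, the origin recognition complex, CDC6 and CDT1 load the ring of MCM proteins on DNA. CDC7 kinase, CDC45 and the GINS complex then convert the ring into a running helicase, the clamp PCNA holds the polymerases on the template, and ribonucleotide reductase and thymidylate synthase supply the building blocks. Because these genes are expressed mainly as cells enter and pass S phase, their mRNAs are widely used as markers of proliferating cells. In RNA from a whole culture, fewer cells in S phase and less RNA per cell cannot be told apart.

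The MBD2 transcript was checked first. Its log2 value was 12.17, 11.72 and 12.50 on MBD2 arrays 1, 2 and 3, against 8.92, 9.03 and 9.68 on control arrays 1, 2 and 3, and MBD2 array 1 lay between the other MBD2 arrays. This probe set has a shared-sequence ending, and the brightest MBD2 probe set without one had a log2 fold change of 0.11. The 6 arrays did not form 2 even groups. Control arrays 1 and 2 had 5 genes over 2-fold apart and MBD2 arrays 2 and 3 had 95, whereas control array 3 differed from control array 1 by that much in 1572 genes and MBD2 array 1 from MBD2 array 2 in 2877 genes. These arrays, control array 3 and MBD2 array 1, are therefore described on their own beside every group comparison. Of 10 marker genes of basal mammary epithelium, 6 were measured, and their log2 values were 8.04 or more on every array.

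Promoter sequences are shown because many of the genes hold a control element that the choice by name did not use. E2F proteins bind short related words, and 4 of them were searched on both strands, namely TTTCCCGC, TTTCGCGC, TTTGCCGC and TTTGGCGC, in RefSeq windows of the GRCh38.p14 build that run from 250 bases before to 50 bases after the start of each gene. A word can overlap another on the opposite strand. Windows were available for 38 of the 44 genes, all but MCM4, MCM5, RPA2, RPA3, CCNE2 and E2F8. Of these 38 windows 20 held an E2F word (52.6%), against 3.31% of 35116 windows of the whole table and 4.36% of the 15384 windows of genes on the array. The words numbered 27 in all, of which 23 began upstream of the start and 17 within the last 100 bases before it. The 8 stretches below lie upstream of the start and have E2F words in capitals. MCM6 is shown because it held 4 words, in pairs that overlap, E2F1 and E2F2 because they encode the factors themselves, PCNA, TYMS, RFC3 and GINS2 because their values carry the results below, and CDC7, which had no E2F word, because on control array 3 it lay furthest below control arrays 1 and 2. The stretches are not an even sample. TK1, with the largest fold change of the 44 genes, and CDC45 and ORC1 had no E2F word and are not shown.
MCM6: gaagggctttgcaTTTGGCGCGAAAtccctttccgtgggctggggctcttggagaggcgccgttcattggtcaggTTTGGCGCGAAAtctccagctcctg
E2F1: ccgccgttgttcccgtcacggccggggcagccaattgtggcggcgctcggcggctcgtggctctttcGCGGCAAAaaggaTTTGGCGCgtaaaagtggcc
PCNA: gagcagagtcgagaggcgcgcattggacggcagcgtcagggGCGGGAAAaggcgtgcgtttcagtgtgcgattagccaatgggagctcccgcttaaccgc
TYMS: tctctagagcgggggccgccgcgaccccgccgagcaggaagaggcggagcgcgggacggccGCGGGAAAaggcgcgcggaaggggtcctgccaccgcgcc
RFC3: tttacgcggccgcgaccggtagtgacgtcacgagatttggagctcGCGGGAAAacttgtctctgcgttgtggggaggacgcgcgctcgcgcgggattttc
GINS2: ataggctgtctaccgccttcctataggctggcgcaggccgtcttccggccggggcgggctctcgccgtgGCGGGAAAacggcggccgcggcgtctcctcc
E2F2: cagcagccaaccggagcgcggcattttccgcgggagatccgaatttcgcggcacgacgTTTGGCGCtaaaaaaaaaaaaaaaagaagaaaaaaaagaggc
CDC7: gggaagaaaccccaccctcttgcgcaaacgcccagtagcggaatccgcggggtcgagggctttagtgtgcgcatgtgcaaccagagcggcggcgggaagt
The stretches are chr2:135876509-135876608 (minus strand) for MCM6, chr20:33686386-33686485 (minus strand) for E2F1, chr20:5126623-5126722 (minus strand) for PCNA, chr18:657553-657652 (plus strand) for TYMS, chr13:33818049-33818148 (plus strand) for RFC3, chr16:85688955-85689054 (minus strand) for GINS2, chr1:23531234-23531333 (minus strand) for E2F2 and chr1:91500751-91500850 (plus strand) for CDC7. The CCAAT box, bound by NF-Y and searched as CCAAT on both strands, was in 20 of the 38 windows (52.6%) and in 34.6% of all windows. The CHR word TTTGAA, through which genes of mitosis are held back outside division, was in 1 of the 38 windows (2.63%), that of RRM1, against 15.2% of all windows. Among 20 windows of mitosis genes the order was the other way, since 1 held an E2F word (5.0%) and 14 a CHR word (70.0%). A match is a description of the letters only, not a bound site.

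**Figure D1:**
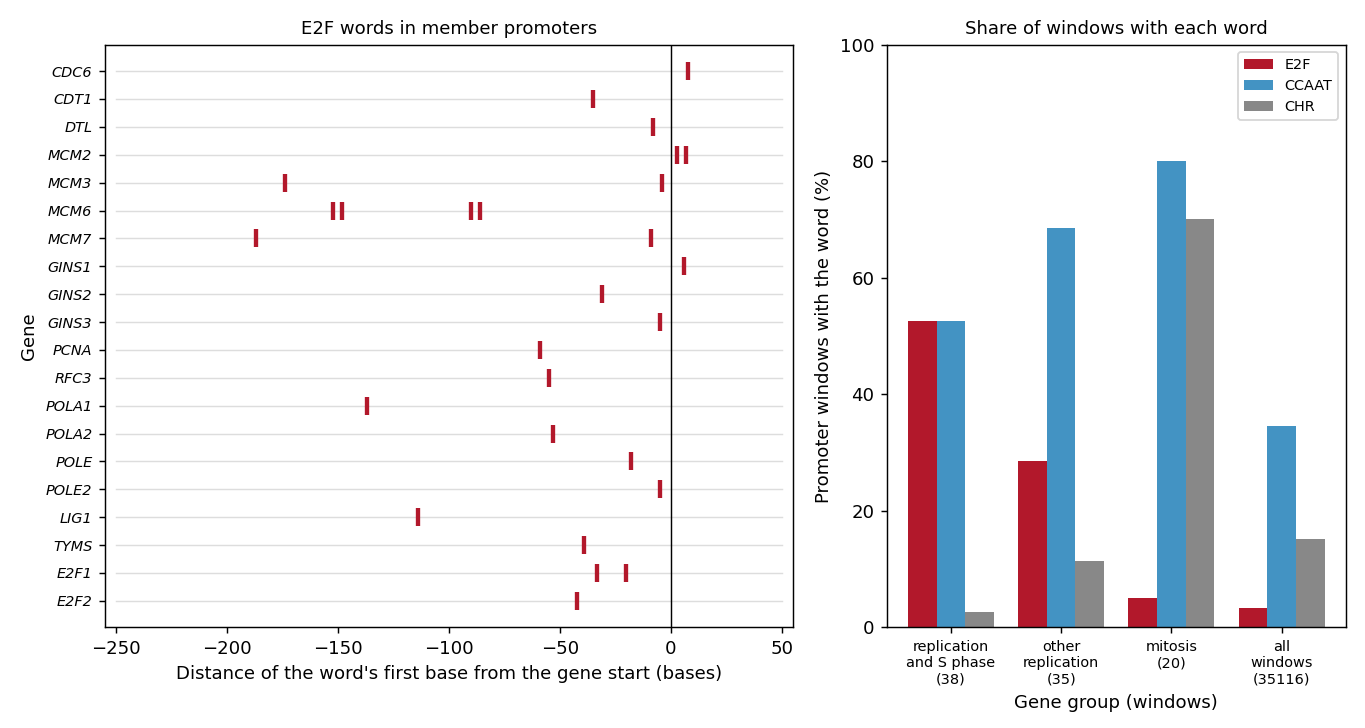
Left, distance in bases from the gene start to the first base of each E2F word (red ticks) in the 20 replication genes whose promoter window, drawn as a grey line, held at least 1. Right, percent of promoter windows with an E2F word, a CCAAT box or a CHR word in 4 groups, with the number of windows in parentheses. E2F words were in 52.6% of replication gene windows and 5.0% of mitosis gene windows, and CHR words in 2.63% and 70.0%.

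In MBD2 overexpressing MCF-10A cells 1 of the 44 genes, E2F2, was called lower than in control cells, and none was called higher. Both counts were near the shares of all genes called, and a gene not called is not shown to be unchanged. The test was limma over all 19775 genes with Benjamini-Hochberg adjustment, and a gene was called at an adjusted p under 0.05 and a change of at least 1.5-fold. By this rule 0 of 44 replication genes were higher, where 1.25% of all genes were, and 1 of 44 was lower, where 1.5% of all genes were. The same 0 and 1 were found by limma at p under 0.05 without adjustment, where 1719 and 1896 of 19775 genes were. The mean of the MBD2 arrays nevertheless lay above that of the control arrays in 40 of 44 genes, with a median log2 fold change of 0.46, against -0.02 for all genes. With MBD2 array 1 left out this median was 1.04, with array 2 left out 0.15 and with array 3 left out 0.27, and it lay between 0.33 and 0.53 when a control array was left out. The spread inside the MBD2 group was larger than these differences. The median of the 44 genes, taken relative to the control mean, was -0.50 on MBD2 array 1, 1.16 on MBD2 array 2 and 0.93 on MBD2 array 3, against 0.22, 0.13 and -0.30 on control arrays 1, 2 and 3. MBD2 array 1 lay on the other side of the controls from its replicates.

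**Figure D2:**
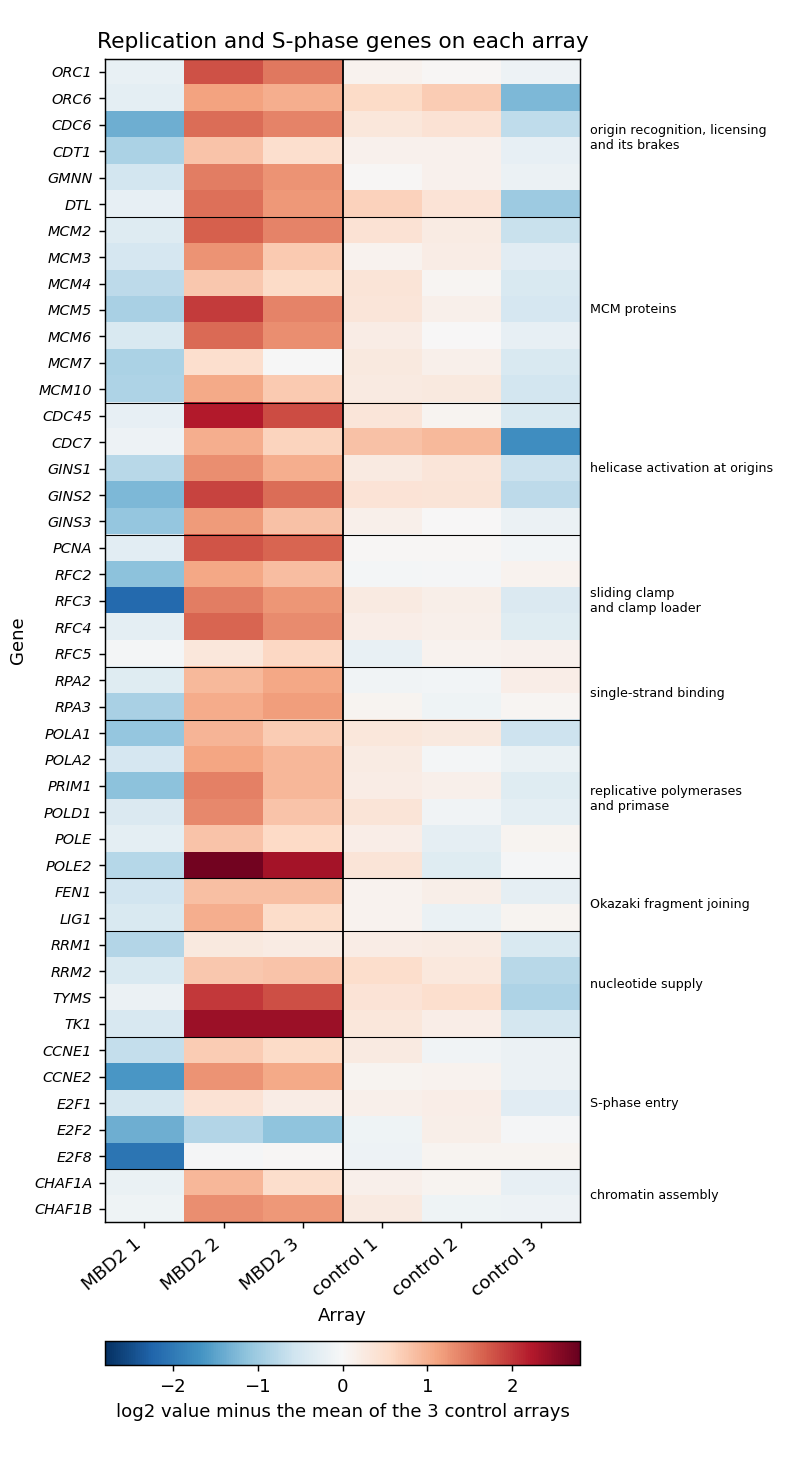
Log2 value of each of the 44 genes minus the mean of the 3 control arrays (colour), with arrays in columns and genes in rows grouped by role. MBD2 arrays 2 and 3 are above every control array in 40 genes, MBD2 array 1 is below the control mean in all 44, and control array 3 is the lowest array in 11.

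The order of the arrays was nearly the same from gene to gene. MBD2 array 1 was the lowest of the 6 arrays in 32 genes, control array 3 in 11 and control array 1 in 1 (RFC5). MBD2 array 2 was the highest in 36, MBD2 array 3 in 6 and control array 2 in 2 (E2F2 and E2F8). No replication gene had all 3 MBD2 arrays above all 3 control arrays (0 of 44, where 10.4% of all genes had), and E2F2 alone had them all below (1 of 44, where 14.6% had). In 29 of 44 genes MBD2 array 1 was below and MBD2 arrays 2 and 3 above every control array, where 7.18% of all genes had this order. Without MBD2 array 1, limma on the remaining 5 arrays called 25 of 44 genes higher, where 9.62% of all genes were, and 1 lower, where 5.68% were. The remaining MBD2 arrays were nearly identical, and whether they are separate cultures is not given. MBD2 array 1 was known to stand apart in these same data. The adjusted p-values without it, here and below, are therefore no independent test of the groups.

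Both arrays with the high replication values also had dimmer hybridization controls, bacterial transcripts added to each sample before hybridization. Their mean log2 value was 10.96, 9.94 and 10.01 on MBD2 arrays 1, 2 and 3, against 11.16, 11.33 and 11.00 on control arrays 1, 2 and 3. Blocking on these controls leaves MBD2 array 1 alone to be set against the control arrays, which is no test of the groups, and the median of the 44 genes was -0.50 there. A difference between MBD2 arrays 2 and 3 and the rest of the series cannot be told apart from the difference in these controls.

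E2F2, an activating member of the E2F family, was the only gene with separate groups. Its log2 value was 6.82, 7.36 and 7.06 on MBD2 arrays 1, 2 and 3, against 8.07, 8.35 and 8.15 on control arrays 1, 2 and 3. Every MBD2 array lay below every control array, and neither MBD2 array 1 nor control array 3 stood apart for this gene. The means were 7.08 ± 0.27 (SD, n = 3) on MBD2 arrays and 8.19 ± 0.14 (SD, n = 3) on control arrays. In limma this is -1.11 on the log2 scale, with a standard error (SE) of 0.17 and an adjusted p of 0.0363, or 2.15-fold lower. The limma adjusted p ranged over 0.0142 to 0.163 when single arrays were left out, and was under 0.05 only without MBD2 array 1, while the log2 fold change stayed between -1.25 and -0.98. The other, dimmer probe sets of E2F2, with mean log2 values of 5.08 and 4.03, differed between the groups by -0.21 and 0.07, and the mean of all 3 by -0.42 (adjusted p by limma 0.0972).

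The other genes of S-phase entry were split. E2F1, the founding activator, was 6.74, 7.64 and 7.43 on MBD2 arrays 1, 2 and 3, against 7.36, 7.41 and 6.91 on control arrays 1, 2 and 3, with a log2 fold change of 0.05 (SE 0.27). Its groups overlapped and MBD2 array 1 was the lowest array. E2F8, an atypical member that represses E2F targets, was 4.91, 6.92 and 6.99 on MBD2 arrays 1, 2 and 3, against 6.81, 7.02 and 7.02 on control arrays 1, 2 and 3. Only MBD2 array 1 was apart, at -2.03 from the control mean, and the other 5 arrays lay within a narrow band. Both cyclin E genes were lowest on MBD2 array 1 and highest on MBD2 array 2. MBD2 array 1 differed from the mean of MBD2 arrays 2 and 3 by -2.78 for CCNE2 and by -1.30 for CCNE1. CCNE2 had 6.55, 9.42 and 9.22 on MBD2 arrays 1, 2 and 3, against 8.24, 8.26 and 8.002 on control arrays 1, 2 and 3. Its control arrays lay together, between the low and the high MBD2 arrays.

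In the licensing group all 6 genes were below the control mean on MBD2 array 1 and above it on MBD2 arrays 2 and 3. ORC1, the largest subunit of the origin recognition complex, was the dimmest of the 44 genes, at 4.84, 6.83 and 6.51 on MBD2 arrays 1, 2 and 3, against 5.15, 5.08 and 4.89 on control arrays 1, 2 and 3. Its lowest value was still above the signal of the bacterial control probe sets whose transcript had been left out of the samples (2.93 to 3.67). CDC6, which helps to load the MCM ring, was 5.27, 8.22 and 8.04 on MBD2 arrays 1, 2 and 3, against 6.97, 7.04 and 5.93 on control arrays 1, 2 and 3. It was low on both arrays that stood apart, 7.24-fold on MBD2 array 1 against MBD2 arrays 2 and 3 and 2.10-fold on control array 3 against control arrays 1 and 2. CDT1, its partner in loading, differed by 0.12 between the groups (SE 0.44), at 6.54, 8.24 and 7.90 on MBD2 arrays 1, 2 and 3, against 7.55, 7.54 and 7.21 on control arrays 1, 2 and 3. GMNN, which encodes geminin, the inhibitor of CDT1, was 8.74, 10.69 and 10.51 on MBD2 arrays 1, 2 and 3, against 9.28, 9.37 and 9.09 on control arrays 1, 2 and 3. Loader and inhibitor were both lowest on MBD2 array 1 and highest on MBD2 array 2. ORC6, the smallest subunit of the complex, was 9.11, 10.52 and 10.41 on MBD2 arrays 1, 2 and 3, against 9.93, 10.10 and 8.12 on control arrays 1, 2 and 3. DTL, which directs the destruction of CDT1 in S phase, was 9.61, 11.37 and 11.06 on MBD2 arrays 1, 2 and 3, against 10.48, 10.21 and 8.82 on control arrays 1, 2 and 3. For these 2 genes control array 3 and not MBD2 array 1 was the lowest array of the 6. On the other probe set of DTL these arrays were level, at 6.72 on control array 3 and 6.73 on MBD2 array 1.

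All 7 MCM genes were lower on MBD2 array 1 than on MBD2 arrays 2 and 3, with a median of -1.77, and all 7 were lower on control array 3 than on control arrays 1 and 2, with a median of -0.64. MCM2 to MCM7 encode the subunits of the helicase ring, and MCM10 a protein needed to start it. Within the ring the difference of MBD2 array 1 from MBD2 arrays 2 and 3 was largest for MCM5 (-2.57) and smallest for MCM7 (-1.12). MCM5 was 7.13, 9.99 and 9.41 on MBD2 arrays 1, 2 and 3, against 8.36, 8.17 and 7.57 on control arrays 1, 2 and 3. MCM7 was 8.92, 10.28 and 9.81 on MBD2 arrays 1, 2 and 3, against 10.09, 9.96 and 9.39 on control arrays 1, 2 and 3, and differed by -0.14 between the groups (SE 0.38). MBD2 array 3 was inside the control range for MCM7, which was not so for the other MCM genes. Without MBD2 array 1, limma called 4 of the 7 higher (MCM2, MCM3, MCM5 and MCM6). MCM6, whose promoter stretch above holds 4 E2F words, had then a log2 fold change of 1.44 (adjusted p = 0.00758).

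The genes that switch the helicase on included the widest range on control array 3. CDC7, the kinase that fires origins, was 7.33, 8.49 and 8.08 on MBD2 arrays 1, 2 and 3, against 8.29, 8.38 and 5.72 on control arrays 1, 2 and 3. On control array 3 it lay 6.12-fold below control arrays 1 and 2, the largest such difference of the 44 genes, and even MBD2 array 1 was higher than that array. CDC45, a part of the running helicase, was 5.48, 7.94 and 7.55 on MBD2 arrays 1, 2 and 3, against 6.06, 5.79 and 5.30 on control arrays 1, 2 and 3. Its log2 fold change over 6 arrays was 1.27 (SE 0.66, adjusted p by limma 0.370), and without MBD2 array 1 it was 2.02 (adjusted p = 0.0088). GINS2, a subunit of the GINS complex, was 7.06, 10.23 and 9.88 on MBD2 arrays 1, 2 and 3, against 8.70, 8.68 and 7.59 on control arrays 1, 2 and 3. GINS2 was low on both arrays that stood apart, 7.96-fold on MBD2 array 1 and 2.15-fold on control array 3. Another probe set of GINS2, with a mean of 7.89, did not follow it, and was 0.28 higher on MBD2 array 1 than on MBD2 arrays 2 and 3. GINS1 and GINS3 differed by -1.94 and -2.09 between MBD2 array 1 and MBD2 arrays 2 and 3.

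PCNA, the sliding clamp, was among the brightest of the 44 genes and separated MBD2 arrays 2 and 3 cleanly from the rest. It was 9.997, 12.04 and 11.91 on MBD2 arrays 1, 2 and 3, against 10.32, 10.33 and 10.22 on control arrays 1, 2 and 3. The control arrays spanned little, control array 3 included, with an SD of 0.06, while the SD of the MBD2 arrays was 1.15. The log2 fold change of 1.03 (SE 0.55) had an adjusted p of 0.386 in limma, and without MBD2 array 1 it was 1.69 (adjusted p = 0.00279). RFC3, a subunit of the loader that opens the clamp, had the largest difference on MBD2 array 1 among the chosen probe sets. It was 6.45, 10.07 and 9.86 on MBD2 arrays 1, 2 and 3, against 8.88, 8.81 and 8.23 on control arrays 1, 2 and 3. MBD2 array 1 lay 11.4-fold below MBD2 arrays 2 and 3 and 4.55-fold below the control mean, and the log2 fold change between the groups was 0.16 (SE 0.98). The other, dimmer probe sets of RFC3 differed by -0.65 and -2.22 between MBD2 array 1 and MBD2 arrays 2 and 3. Those of MCM10 that were not chosen differed by -3.73 and -3.72. RFC2 and RFC4 differed by -2.12 and -1.75 between that array and MBD2 arrays 2 and 3. RFC5, another subunit, differed by -0.51 on its chosen probe set, but its probe sets disagreed. The chosen one was 8.91, 9.30 and 9.55 on MBD2 arrays 1, 2 and 3, against 8.76, 9.06 and 9.10 on control arrays 1, 2 and 3. The next brightest probe set of RFC5 was 6.79, 9.83 and 9.52 on MBD2 arrays 1, 2 and 3, against 8.10, 7.91 and 7.40 on control arrays 1, 2 and 3, with the same order of arrays as RFC3.

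**Figure D3:**
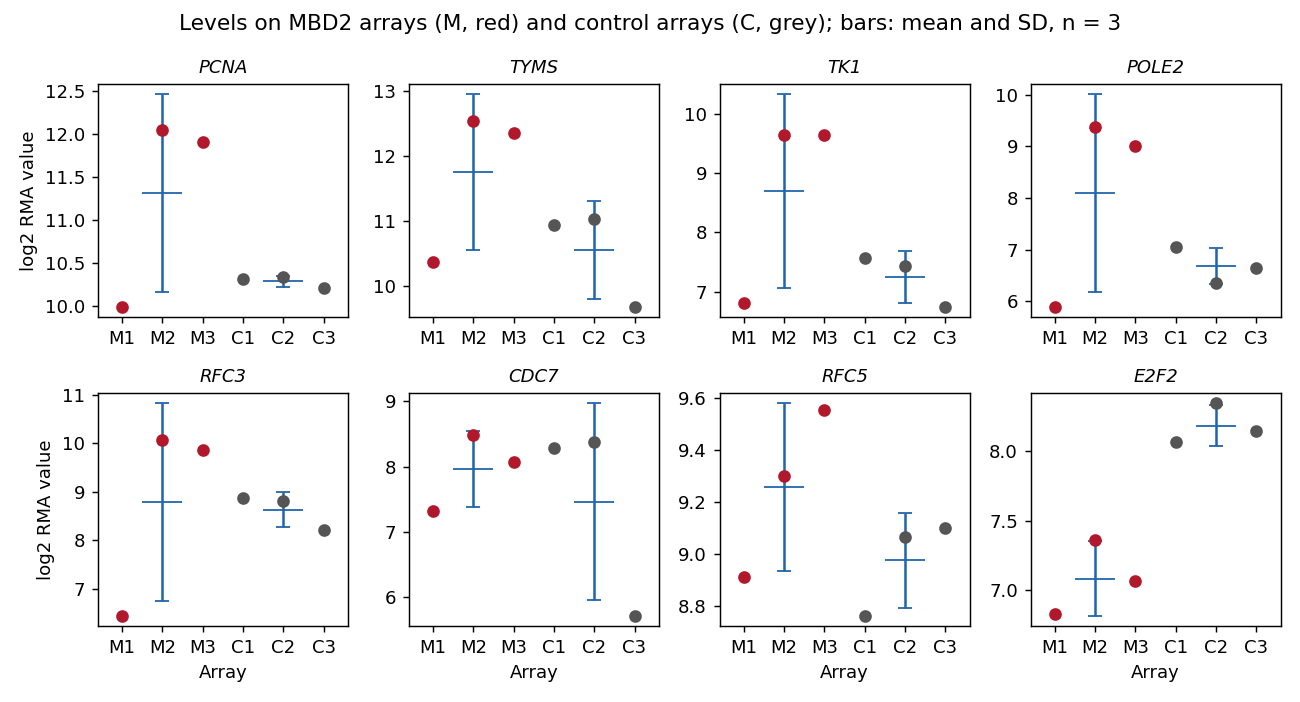
Log2 RMA values of 8 genes on MBD2 arrays 1 to 3 (M1 to M3, red) and control arrays 1 to 3 (C1 to C3, grey), each panel with its own axis. Blue bars mark group means with their SD (n = 3). M1 is below M2 and M3 in every panel, C3 is the lowest control for CDC7 at 5.72, and only E2F2 has separate groups.

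The polymerase genes included the widest MBD2 group after that of RFC3. POLE2, the accessory subunit of the leading-strand polymerase, was 5.90, 9.38 and 9.01 on MBD2 arrays 1, 2 and 3, against 7.05, 6.35 and 6.65 on control arrays 1, 2 and 3. MBD2 array 1 was 9.85-fold below MBD2 arrays 2 and 3, whereas control array 3 lay between the other control arrays. The log2 fold change of 1.41 (SE 0.92) had an adjusted p of 0.476 in limma, and without MBD2 array 1 it was 2.51 (adjusted p = 0.0048). POLE, the catalytic subunit of the same enzyme, ranged much less, with 5.84, 6.89 and 6.67 on MBD2 arrays 1, 2 and 3, against 6.28, 5.85 and 6.17 on control arrays 1, 2 and 3. PRIM1, the primase that lays down the first RNA bases, and POLA1 and POLA2, its polymerase partners, differed by -2.32, -1.91 and -1.49 between MBD2 array 1 and MBD2 arrays 2 and 3. POLD1, of the lagging-strand polymerase, differed by -1.47. FEN1 and LIG1, which trim and seal the fragments of the lagging strand, differed by -1.37 and -1.20, and RPA2 and RPA3, which coat single-stranded DNA, by -1.32 and -2.02. On control array 3 RPA2 was 0.28 above control arrays 1 and 2, the highest such value of the 44 genes, and RPA3, LIG1 and POLE were also slightly above.

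All 4 genes of nucleotide supply were lower on MBD2 array 1 than on MBD2 arrays 2 and 3 and lower on control array 3 than on control arrays 1 and 2. TYMS, thymidylate synthase, was 10.38, 12.54 and 12.35 on MBD2 arrays 1, 2 and 3, against 10.94, 11.03 and 9.69 on control arrays 1, 2 and 3. TK1, the thymidine kinase of the salvage route, was 6.80, 9.63 and 9.64 on MBD2 arrays 1, 2 and 3, against 7.57, 7.42 and 6.75 on control arrays 1, 2 and 3. For both, MBD2 arrays 2 and 3 were far above every control array, and MBD2 array 1 was not the lowest array, since control array 3 was lower. For TK1 these arrays were almost level on the chosen probe set, while its other probe set was 6.24 on MBD2 array 1 and 5.93 on control array 3. The log2 fold change of TK1 was the largest of the 44 genes, at 1.44 (SE 0.81, adjusted p by limma 0.404), and that of TYMS was 1.20 (SE 0.67, adjusted p by limma 0.405). Without MBD2 array 1 they were 2.39 (adjusted p = 0.00605) and 1.89 (adjusted p = 0.0406). RRM2, the S-phase subunit of ribonucleotide reductase, was the brightest gene, at 12.47, 13.66 and 13.69 on MBD2 arrays 1, 2 and 3, against 13.38, 13.19 and 12.11 on control arrays 1, 2 and 3. Its other probe set, with a mean of 11.17, had larger differences: MBD2 array 1 differed from the mean of MBD2 arrays 2 and 3 by -2.66, against -1.20 for the chosen probe set, and control array 3 from that of control arrays 1 and 2 by -2.19, against -1.17. RRM1, the large subunit, was 10.09, 11.18 and 11.15 on MBD2 arrays 1, 2 and 3, against 11.12, 11.13 and 10.48 on control arrays 1, 2 and 3. Its MBD2 arrays 2 and 3 were almost level with control arrays 1 and 2, and its log2 fold change was -0.10 (SE 0.35). CHAF1A and CHAF1B, which place histones on new DNA, differed by -0.90 and -1.39 between MBD2 array 1 and MBD2 arrays 2 and 3.

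**Figure D4:**
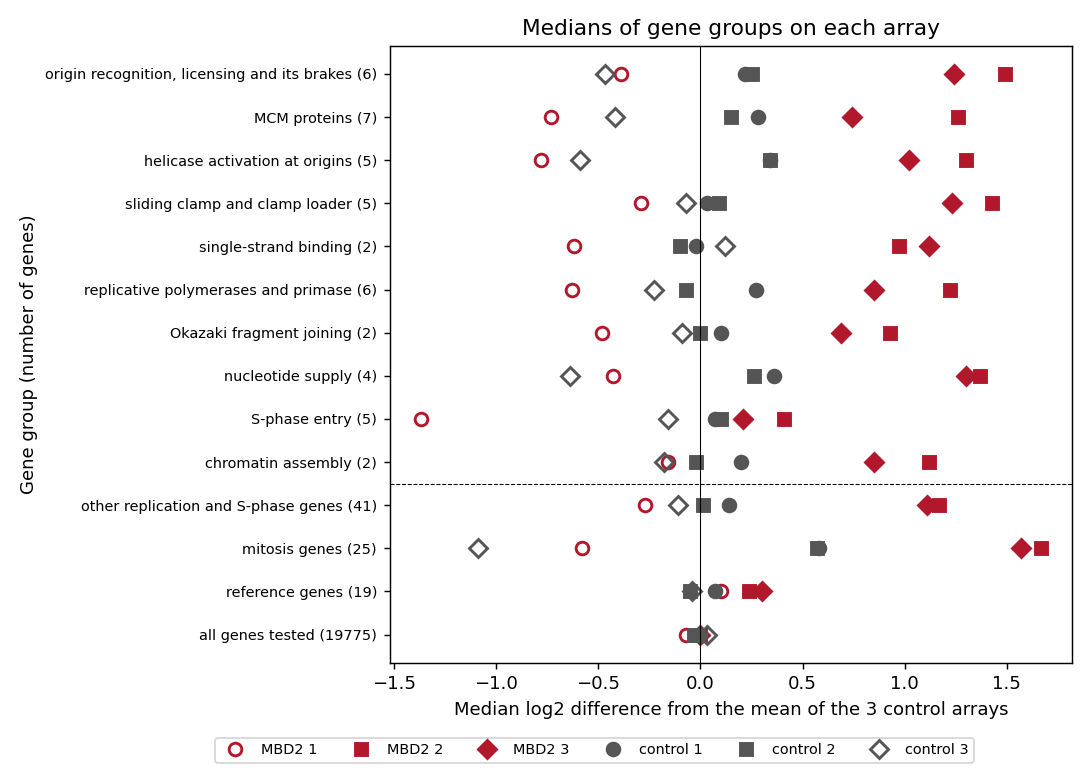
Median log2 difference from the mean of the 3 control arrays for each role group of the 44 genes, for the other replication genes, for mitosis genes, for reference genes and for all genes tested, on MBD2 arrays 1 to 3 (red) and control arrays 1 to 3 (grey), with the number of genes in parentheses. Open symbols are MBD2 array 1 and control array 3. MBD2 array 1 is below 0 and MBD2 arrays 2 and 3 are above 0 in every role group, and control array 3 reaches -1.09 for mitosis genes.

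Both arrays that stood apart were low in most replication genes, but by different amounts. The gene with the largest difference was RFC3 on MBD2 array 1 and CDC7 on control array 3. Relative to MBD2 arrays 2 and 3, all 44 genes were lower on MBD2 array 1, with a median of -1.76, from -3.51 (RFC3) to -0.39 (E2F2), against a median of -0.06 for all genes. Over 2-fold lower were 38 of 44, where 8.46% of all genes were, and 0 of 44 were over 2-fold higher, where 5.1% were. Of 19 reference genes measured, 14 were also lower on MBD2 array 1 than on MBD2 arrays 2 and 3, with a median of -0.31. Among them HPRT1 was 9.38, 11.42 and 11.14 on MBD2 arrays 1, 2 and 3, while GUSB went the other way, at 10.27, 9.68 and 9.73. Relative to control arrays 1 and 2, control array 3 was lower in 37 of 44 genes, with a median of -0.44, from -2.61 (CDC7) to 0.28 (RPA2), against 0.04 for all genes. Over 2-fold lower were 7 of 44 (CDC7, ORC6, DTL, TYMS, RRM2, GINS2 and CDC6), where 4.31% of all genes were, and 0 of 44 were over 2-fold higher, where 3.36% were. The near-identical arrays set the scale of these differences: control arrays 1 and 2 were a median of 0.12 apart over the 44 genes and at most 0.69 (POLE2), and MBD2 arrays 2 and 3 a median of 0.24 and at most 0.58 (MCM5). Each of these contrasts sets a single array against 2, so no test was made.

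Mitosis genes, given for comparison, were low on the same arrays in another proportion. Of 25 mitosis genes, 25 were over 2-fold lower on MBD2 array 1, with a median of -2.17, and 21 on control array 3, with a median of -1.64. Of all genes 8.46% and 4.31% were over 2-fold lower on these arrays. The replication genes had medians of -1.76 and -0.44. Single replication genes ranged widely on control array 3. PCNA and GMNN differed by -0.11 and -0.24 between control array 3 and control arrays 1 and 2, and POLE2 on control array 3 lay between those arrays. CDC7, ORC6 and DTL, in contrast, differed by -2.61, -1.90 and -1.52. The difference between the lists was not tested. The 20 members with an E2F word had medians of -1.88 on MBD2 array 1 and -0.47 on control array 3, and the 18 members without such a word -1.43 and -0.46, ranges that overlapped widely.

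**Figure D5:**
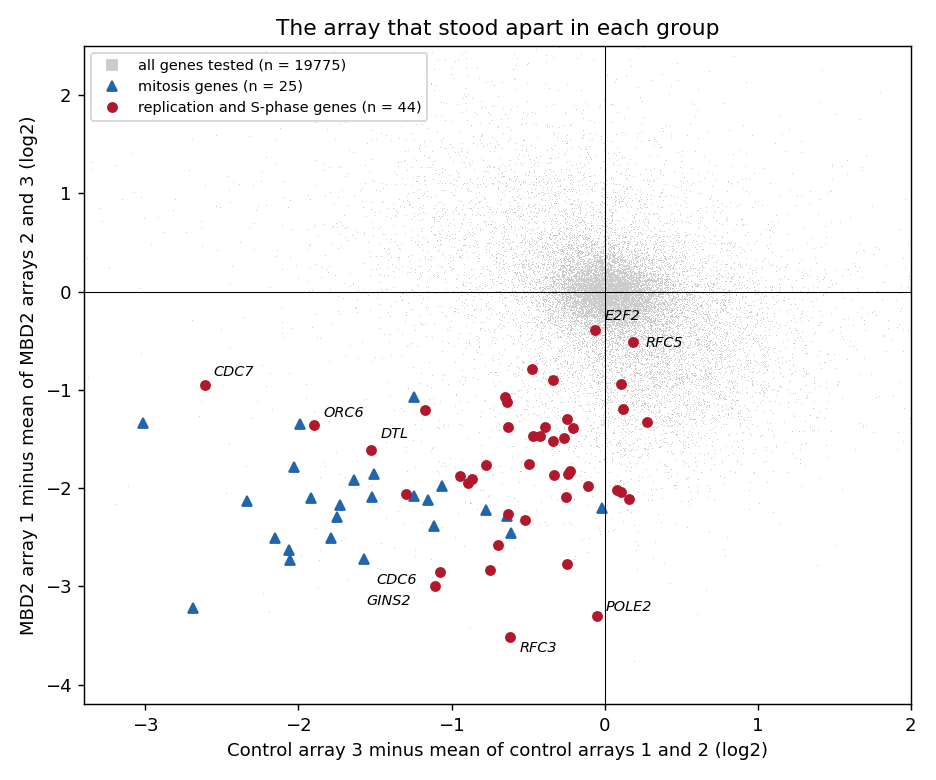
Each point is a gene, with the log2 difference of control array 3 from control arrays 1 and 2 on the horizontal axis and that of MBD2 array 1 from MBD2 arrays 2 and 3 on the vertical axis. Replication genes (red circles, 44) lie at a median of -0.44 and -1.76, mitosis genes (blue triangles, 25) at -1.64 and -2.17, and all genes tested (grey) at 0.04 and -0.06. Genes beyond the axis limits, all of them grey, are not drawn.

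Other values moved with MBD2 array 1 as well. Of 9 fibroblast markers, DCN, LUM, COL3A1 and FAP were highest on that array, with DCN at 12.57, 7.59 and 8.54 on MBD2 arrays 1, 2 and 3, against 9.74, 9.60 and 8.43 on control arrays 1, 2 and 3. The others did not share this order. COL1A1 and COL1A2 were highest on MBD2 array 2, PDGFRA on MBD2 array 3, THY1 on control array 2 and PDGFRB on control array 3. COL1A2 was 5.92, 6.54 and 6.25 on MBD2 arrays 1, 2 and 3. The summed linear level of the 9, in which the brightest genes weigh most, was 12615, 2563 and 2271 on MBD2 arrays 1, 2 and 3, against 3590, 3467 and 1340 on control arrays 1, 2 and 3. PDGFRB, a receptor of mesenchymal cells, stayed between 5.05 and 5.33 on all 6 arrays, and all 9 markers were above the highest value of those left-out bacterial controls (3.67). That does not show that all 9 were expressed, since MTAP, of the lost 9p21 segment, was 5.36 on MBD2 array 1. The 7 endothelial markers summed to 218, 211 and 223 on MBD2 arrays 1, 2 and 3, against 229, 240 and 214 on control arrays 1, 2 and 3. The 7 leukocyte markers measured summed to 467, 279 and 266, against 1246, 1107 and 1938. CD14 was 8.27, 6.70 and 6.57, against 10.07, 9.88 and 10.79, and the other 6 were at 5.81 or less. The part of these genes in the low replication values of MBD2 array 1 was not tested. As a sign of RNA integrity, the 3′ minus 5′ difference of GAPDH was 1.84, 1.49 and 1.52 on MBD2 arrays 1, 2 and 3, against 2.03, 2.52 and 1.83 on control arrays 1, 2 and 3. That of ACTB was larger on every array, at 3.93, 3.45 and 3.44 on MBD2 arrays 1, 2 and 3, against 3.95, 4.57 and 3.62 on control arrays 1, 2 and 3. Both differences were lowest on MBD2 arrays 2 and 3, where the replication genes were highest, and their part was not tested either.

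Probe sets that were not chosen mostly had the same order. The 24 genes with several probe sets had 36 others, of which 33 were lower on MBD2 array 1 than on MBD2 arrays 2 and 3 (median -1.13) and 27 were lower on control array 3 than on control arrays 1 and 2 (median -0.18). Over 2-fold lower were 22 and 3 of them, where 8.46% and 4.31% of all genes were, each by its chosen probe set. TYMS had another probe set, with a mean of 7.82, that differed by -2.13 on MBD2 array 1 and -0.44 on control array 3, where the chosen one differed by -2.06 and -1.30. The depth of the dip on control array 3 thus differed between probe sets of that gene.

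Of 41 further genes of replication and S phase that were measured, 0 were called higher and 0 lower by limma over 6 arrays (7 and 0 at p under 0.05 without adjustment, where 1719 and 1896 of 19775 genes were). Without MBD2 array 1, 21 of 41 were called higher, where 9.62% of all genes were, and 0 lower, where 5.68% were. Their medians were -1.28 on MBD2 array 1 and -0.17 on control array 3. Over 2-fold lower there were 31 and 7 of them, where 8.46% and 4.31% of all genes were. UHRF1, which guides the copying of DNA methylation at the fork, was among the lowest of them on both arrays, at 8.38, 11.47 and 11.15 on MBD2 arrays 1, 2 and 3, against 9.60, 9.45 and 7.85 on control arrays 1, 2 and 3. DBF4, the partner that activates CDC7, was 6.42, 9.09 and 8.98 on MBD2 arrays 1, 2 and 3, against 8.12, 8.08 and 7.38 on control arrays 1, 2 and 3. CDC7 and DBF4 thus differed in which array was lowest. On MBD2 array 1 NASP, a histone chaperone, and EXO1, an exonuclease of mismatch repair, differed by -2.43 and -2.36 from MBD2 arrays 2 and 3. On control array 3 TOP2A, which untangles copied DNA, HELLS, a chromatin remodeller, and CCNA2, which encodes cyclin A, differed by -2.17, -1.86 and -1.83 from control arrays 1 and 2. Every MBD2 array was above every control array in 6 of the 41 (RFC1, POLE4, TOPBP1, E2F3, E2F7 and DUT, named after their values were seen), where 10.4% of all genes had this order, and below in 1 (MCM9), where 14.6% had.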

How the data were processed

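MCF-10A RNA was hybridized to 6 arrays (Affymetrix Human Genome U133 Plus 2.0), 3 for the MBD2 lentivirus and 3 for control cells. The authors deposited log2 values for 54675 probe sets, background-corrected, quantile-normalized and summarized with RMA. The affy package is also named in the submitters' processing notes, with no version. Quantile normalization gives every array the same median (5.24), so values are relative to the bulk of genes. The precision is limited by the number of arrays. A single symbol was given to 41091 probe sets. Those with several symbols (1801) or none (11721) and 62 controls were not tested. Of the 44 genes, 20 had a single probe set, 19 were represented by a probe set whose name has an ending for shared sequence, and 10 had no other kind. No filter on low values was applied.

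Groups were compared with limma 3.58.1 in R 4.3.3 (lmFit, then eBayes, group as the only term) with Benjamini-Hochberg adjustment over 19775 genes. No test of the arrays is named in the methods. A gene was called at an adjusted p under 0.05 and at least 1.5-fold. The fit was tested on simulated data with known changes. The genes, the lists beside them and the comparisons were chosen with earlier results of these data known. Values on every array were given by rule: called genes, the 6 largest and 6 smallest fold changes, and the 6 largest differences on control array 3 and on MBD2 array 1. CCNE1, GMNN, MCM5, POLE and RFC5 were added after their values were seen. Alternatives were the mean of all probe sets, probe sets without a shared ending, a minimum mean of 5, centring on reference genes, further quantile normalization, trend and robust fitting, a replicate block, near-identical arrays averaged, arrays left out, the hybridization controls as a block, no fold limit and the fold rule of the methods. Promoter windows and words came from RefSeq (GRCh38.p14).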

Additional observations from a re-analysis of the deposited data

How the results depend on the processing

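With each array left out in turn, the number of the 44 genes called lay between 0 and 26, that of the further replication genes between 0 and 21 and that of all genes between 19 and 3026; 26, 21 and 3026 were reached without MBD2 array 1. Without MBD2 array 1 the 26 were 25 higher and 1 lower; without any other array limma called 0 of the 44, with 0 higher and 1 lower at p under 0.05 before adjustment. With both arrays that stood apart left out, 32 of the 44, 26 of the further genes and 5409 genes were called. With a block for the hybridization controls, which sets MBD2 array 1 alone against the control arrays, the fit marked 5 of the 44 and 349 genes, with p-values that rest on a single MBD2 array, and the median log2 fold change of the 44 genes was -0.50 against 0.46. Averaging the near-identical arrays, which leaves 2 values a group, gave 0 of the 44 and 0 of all genes (738 higher and 769 lower at p under 0.05 before adjustment). The median of the 44 genes lay between 0.15 (without MBD2 array 2) and 1.04 (without MBD2 array 1) with single arrays left out. The call of E2F2 was lost, leaving 0 of the 44, when all probe sets were averaged, with trend and robust fitting, and with the fold rule of the methods on every MBD2 array, by which 1044 genes passed; its log2 fold change was -0.42 with probe sets averaged and -1.11 with trend and robust fitting. A replicate block gave 0 of the 44 and 63 of all genes; same-numbered arrays had correlations of 0.17, -0.27 and 0.21 between their deviations from the group means, so the numbers do not pair the arrays.

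The median on control array 3 was -0.37 when all probe sets were averaged and -0.29 for the 34 genes with a probe set free of a shared ending, against -0.44. The median on MBD2 array 1 was -1.51 after centring on reference genes, which moved the median of all genes to -0.11, against -1.76. Small fold changes had no stable sign. E2F1 was -0.0205 with all probe sets averaged, -0.0861 without shared endings, -0.0494 after centring and -0.0076 with averaged arrays, and CDT1 -0.0739 with averaged arrays. With both arrays that stood apart left out, E2F8 was 0.0395, MCM7 0.0204 and RRM1 0.0368. With the hybridization block TK1 was -0.45, POLE2 -0.79, CDC45 -0.24, TYMS -0.17, PCNA -0.29, ORC1 -0.20, E2F1 -0.48 and CDT1 -0.89. With 1 array left out, E2F8 lay between -1.03 and 0.0047, MCM7 between -0.45 and 0.23, RRM1 between -0.32 and 0.25, E2F1 between -0.14 and 0.31 and CDT1 between -0.22 and 0.63. The causes of these changes were not tested. Of the other values, 151 for single genes kept their direction and their side of the threshold. Many of these could hardly have changed. Further quantile normalization left the values almost as they were, and the minimum mean of 5 dropped none of the 44 genes. Trend and robust fitting and the replicate block cannot alter a fold change. Of the 44 genes only E2F2 was called to begin with, so for the others the same side means no call. Another 49 values, for counts and medians, were taken as unchanged by closeness to the main value, not by direction or a threshold. For the median log2 fold change of the replication genes the allowed difference was wide, at 0.90. By it 0.15 (without MBD2 array 2) and 1.04 (without MBD2 array 1) were both taken as unchanged from 0.46.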
